A study of Mus musculus with 18 samples.

Results

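The WA sites are the 25 positions of the VH186.2 heavy chain variable segment at which the deposited mutation lists mark an adenine as a Polη hotspot, an A that follows A or T (W) on the strand listed. They were taken as all lines carrying this mark in the lists of the 3 genotypes, and they are 25 of the 276 positions that the lists cover. The remaining A positions number 44, the TW positions, where T precedes A or T and the A of the hotspot lies on the opposite strand, number 21, and 24 positions carry the mark WGCW of the overlapping AID hotspot. Every A preceded by A or T in the segment carried the mark, so none was left among the other A sites.

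Somatic hypermutation begins when AID deaminates cytosine to uracil, preferentially in WRC motifs and most of all where these overlap on both strands as WGCW. A U:G mismatch can be bound by mismatch repair proteins, EXO1 then removes a stretch of the strand that contains it, and the error-prone polymerase Polη fills the gap, which places mutations at A:T pairs away from the deaminated base. Polη misincorporates preferentially at WA motifs, and G inserted opposite a template T, read as A to G, is its characteristic error.

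Spleen RNA of C57BL/6 mice was used, taken on day 10 after a single intraperitoneal immunization with the hapten conjugate NP(33)-CGG on alum. Wild type mice (Exo1+/+, 7) were set beside mice homozygous for the D173A knock-in (Exo1DA/DA, 8), which carry an EXO1 protein without nuclease activity, and mice that lack the protein (Exo1-/-, 3). Both alleles are carried in the germline, so all cells of these mice, not B cells alone, are affected. In 1000 repeats, the authors' iterations, a random sequence was taken for each CDR3 clone, and those free of mutations are not listed. A clone below is therefore a mutated clone, counted as the mean over the iterations, and the frequency at a site is the percent of these clones in which it was changed. Clone numbers ran from 37.0 to 323.9 (median 108.7) in wild type and from 21 to 167.8 (median 63.2) in Exo1DA/DA mice, and the 3 mice without EXO1 had 71.0, 85.5 and 254.2. The lists name mice by dataset numbers, used here, and do not say which labelled sample each number is.

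The segment read by the lists, positions 19 to 294 of the V segment from 5′ to 3′, is given with the A of each WA site in capitals, to show where the sites lie, and again with the positions marked WGCW in capitals.
WA sites: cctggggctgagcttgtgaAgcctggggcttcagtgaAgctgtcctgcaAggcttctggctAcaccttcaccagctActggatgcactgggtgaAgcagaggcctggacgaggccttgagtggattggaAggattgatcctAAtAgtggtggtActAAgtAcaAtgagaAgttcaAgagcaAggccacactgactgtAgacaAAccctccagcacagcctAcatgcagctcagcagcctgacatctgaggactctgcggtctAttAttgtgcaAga
WGCW positions: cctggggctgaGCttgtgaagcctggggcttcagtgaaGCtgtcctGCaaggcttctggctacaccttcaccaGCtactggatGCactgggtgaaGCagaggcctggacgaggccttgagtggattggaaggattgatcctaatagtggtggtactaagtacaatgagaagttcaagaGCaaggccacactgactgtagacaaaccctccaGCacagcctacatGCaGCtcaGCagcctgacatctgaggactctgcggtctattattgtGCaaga

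In 14 sites the preceding base was A and in 11 it was T. The sites were not spread evenly, as framework region 1 (FR1) held 3, CDR1 2, FR2 2, CDR2 4, FR3 13 and the first bases of CDR3 1. The nearest WGCW position was 1 to 37 nt away (median 9). Of the 14 sites within 10 nt, here called near, 10 had A before them, and of the 11 farther sites 7 had T, so context and distance were partly the same division. The 11 sites from 148 to 194 lay in the longest stretch without WGCW, between positions 115 and 197. The A was the middle base of its codon at 17 sites, the opening base at 6 and the last base at 2. Of the 75 possible single-base changes 67 replace the amino acid, 6 are synonymous and 2, A175T and A292T, make a stop codon.

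The mean frequency at WA sites was lower in Exo1DA/DA than in Exo1+/+ mice, with a p under 0.05 before and not after adjustment, and 2 of the 3 Exo1-/- mice lay in the range of the Exo1DA/DA mice and the other just under it. On average over the 25 sites, a site was changed in 0.46% (lowest mouse), 1.65% (median) and 9.34% (highest) of the clones of Exo1+/+ mice, with a mean of 3.15 ± 3.11 (SD, n = 7). In Exo1DA/DA mice the lowest, median and highest values were 0.0858, 0.52 and 2.29% and the mean 0.778 ± 0.773 (SD, n = 8). The Exo1-/- mice had 0.0733, 0.50 and 1.36%, a mean of 0.645 ± 0.656 (SD, n = 3). The ranges overlapped, and the upper end in Exo1+/+ mice was set by mouse 287 (9.34%) and mouse 286 (5.03%). The difference of means between Exo1DA/DA and Exo1+/+ mice was -2.37 percentage points (2-sided exact permutation test, p = 0.0204, adjusted p = 0.112 over 26 comparisons of genotypes), and in 48 of the 56 pairs of mice the Exo1DA/DA mouse was the lower. Without mouse 287 it was -1.34 (p = 0.0446, exact permutation test), and as a difference of medians -1.13 (p = 0.0659, exact permutation test). Exo1-/- and Exo1+/+ mice differed by -2.50 points (p = 0.175, exact permutation test, lower in 17 of 21 pairs), or by -1.47 without mouse 287, and the 2 mutants by 0.133 (p = 0.830, exact permutation test). With 3 mice the smallest p that the test against Exo1+/+ allows is 0.00833.

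Relative to all mutations of a mouse, WA mutations made up 12.9% ± 9.85 (SD, n = 7) in wild type, 2.86% ± 2.46 (SD, n = 8) in Exo1DA/DA and 4.84% ± 6.80 (SD, n = 3) in Exo1-/- mice. The Exo1+/+ mice ran from 3.25 to 27.5% (median 7.90), the Exo1DA/DA mice from 0.327 to 7.13% (median 2.21), and the Exo1-/- mice had 0.36, 1.49 and 12.7%. This was the comparison with the smallest p, -9.99 points between Exo1DA/DA and Exo1+/+ mice, with the Exo1DA/DA mouse lower in 51 of 56 pairs (exact permutation test, p = 0.00233, adjusted p = 0.0606). It remained under an unadjusted p of 0.05 without each mouse in turn, at -7.56 to -11.6 points. With each distinct mutation of a mouse counted at most 1 time it was -5.52 (exact permutation test, p = 0.012), and the difference in the mean over WA sites -0.279 (exact permutation test, p = 0.046). The latter mean was still divided by all clones, so it is no percent of clones and falls as the clone number rises. For Exo1-/- mice the difference in WA share from Exo1+/+ mice was -8.02 (exact permutation test, p = 0.192). The share of clones with at least 1 WA mutation was 41.5% ± 25.5 in wild type, 15.2% ± 13.2 in Exo1DA/DA and 15.6% ± 15.8 in Exo1-/- mice (SD, n = 7, 8 and 3). The difference of -26.3 points between Exo1DA/DA and Exo1+/+ mice had p = 0.026 by the exact permutation test (adjusted p = 0.112), and leaving out mouse 286, 287, 297 or 300 took it to between 0.0501 and 0.0513. Of the 26 comparisons of genotypes 6 had an unadjusted p under 0.05 and 0 an adjusted one.

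**Figure D1:**
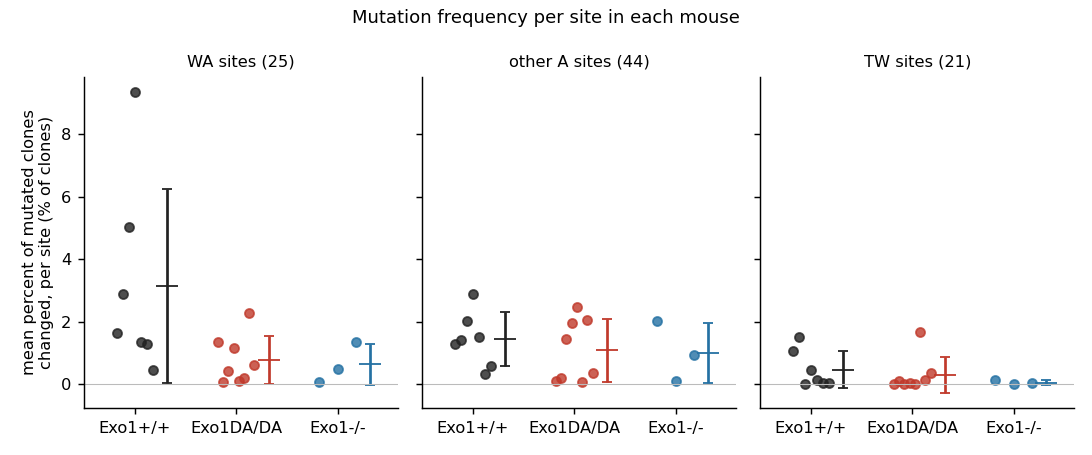
Mean percent of mutated clones changed per site (y axis) at WA, other A and TW sites, with a point for each mouse and the mean ± SD beside the points of each genotype. WA sites reach 9.34% in an Exo1+/+ mouse and 2.29% at most in Exo1DA/DA mice, while the means at other A sites are 1.44, 1.09 and 1.02% in Exo1+/+, Exo1DA/DA and Exo1-/- mice, or 0.872, 0.176 and 0.286% without the last position of the lists.

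The other A sites were the nearest comparison, since they are the same base without the W before it. They were changed in 1.44% ± 0.863 (SD, n = 7) of clones per site in wild type, 1.09% ± 1.01 (SD, n = 8) in Exo1DA/DA and 1.02% ± 0.959 (SD, n = 3) in Exo1-/- mice. TW sites, the same hotspot on the opposite strand, had 0.476% ± 0.595, 0.296% ± 0.566 and 0.0604% ± 0.0685 in the same order. The TW medians were 0.156% in Exo1+/+ and 0.0759% in Exo1DA/DA mice, where mouse 285 (1.53%) and mouse 301 (1.67%) were the highest. Within Exo1+/+ mice WA exceeded TW sites in 7 of 7 mice, by 2.67 points on average (exact sign-flip permutation test, p = 0.0156, the smallest that 7 mice allow, adjusted p = 0.188 over 12 comparisons), and by 1.64 without mouse 287. WA was also the higher in 6 of 8 Exo1DA/DA mice, by 0.482 points, and in 2 of 3 Exo1-/- mice, by 0.585 (exact sign-flip permutation tests, p = 0.234 and 0.50). The excess over TW sites differed between Exo1DA/DA and Exo1+/+ mice by -2.19 points (exact permutation test, p = 0.0606, adjusted p = 0.225). WA exceeded other A sites in 5 of 7 Exo1+/+ mice, by 1.71 points (exact sign-flip permutation test, p = 0.0625) or by 0.920 without mouse 287, and in 4 of 8 Exo1DA/DA mice, where the mean difference was -0.309 (p = 0.50, exact). This excess differed between the 2 genotypes by -2.02 points (p = 0.026, adjusted p = 0.112, exact permutation test), and without mouse 287, 298, 299 or 300 by -1.23, -1.92, -1.95 or -1.72, with p between 0.0583 and 0.0689 (exact permutation tests). The figure for other A sites turned on a single position, the last of the lists, which is an A. Without it the other A sites averaged 0.872, 0.176 and 0.286% in the 3 genotypes, in the order above, and without all positions within 10 nt of the ends WA exceeded other A sites in Exo1DA/DA mice too, by 0.648 points (exact sign-flip permutation test, p = 0.0781). The difference of the excess was then -1.52 points (exact permutation test, p = 0.144).

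Site by site, the mutations were concentrated in few positions and few mice. A site was counted as mutated in a mouse when it was changed in at least 0.5 clone per iteration. By this count 21 of the 25 sites were mutated in an Exo1+/+ mouse, 16 in an Exo1DA/DA mouse and 11 in an Exo1-/- mouse, and 22 in any mouse. The sites 95, 148 and 239 were not mutated in any, with at most 0.0433, 0.0511 and 0.0325% of clones. Single Exo1+/+ mice had 3 to 16 mutated WA sites (median 8), Exo1DA/DA mice 0 to 13 (median 2.5) and Exo1-/- mice 1, 4 and 6. Among Exo1DA/DA mice the 13 sites of mouse 302 stood well above the rest, whose highest count was 4.

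**Figure D2:**
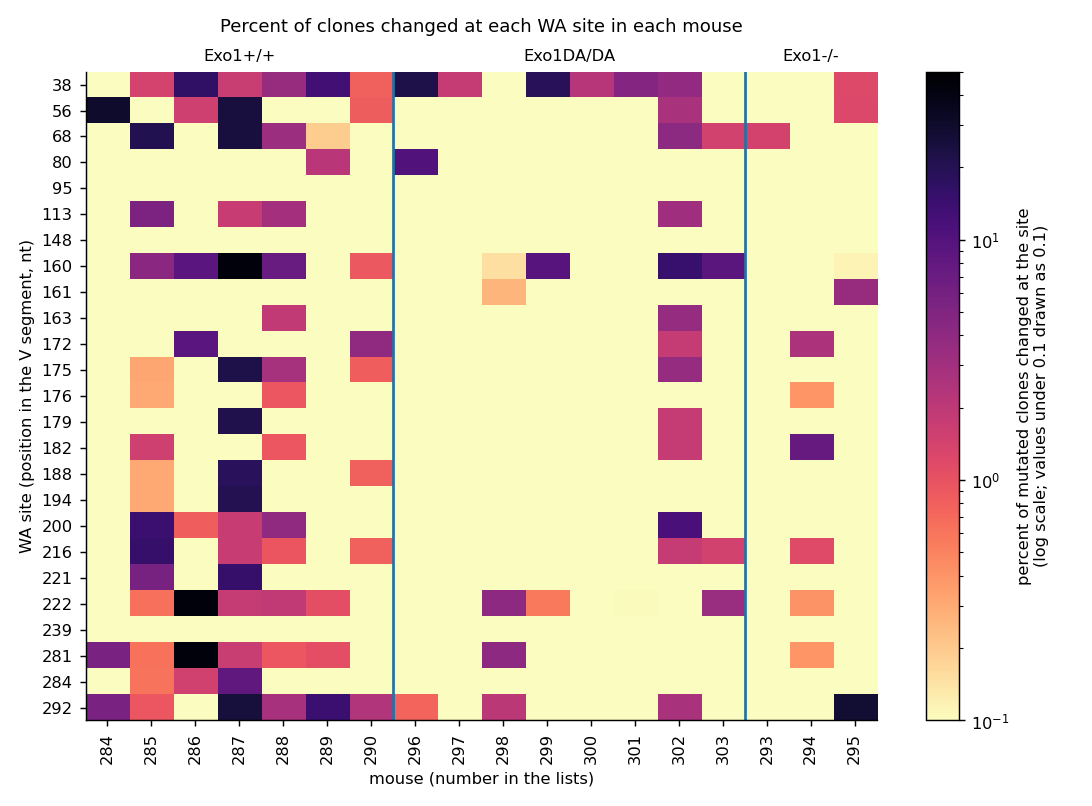
Percent of mutated clones changed at each of the 25 WA sites (rows, by position) in each of the 18 mice (columns, by number, with lines between genotypes), on a log colour scale from 0.1 to 50. Among Exo1DA/DA mice column 302 has the most sites mutated (13), while the darkest cells are site 38 in columns 296 (22.4%) and 299 (18.7%) and site 160 in column 302 (14.9%), and in Exo1-/- mice the darkest are sites 182 (7.48%) and 292 (27.5%).

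The sequence around the sites that carry the values given next is printed with the WA dinucleotide in capitals and 10 nt on each side where the lists reach that far. Sites 38, 160 and 292 were the most changed over all mice, 80 and 182 were led by a mutant mouse, 222 and 281 changed together, and 221 had the smallest p.
site 38: gagcttgtgAAgcctggggct
site 80: gcttctggcTAcaccttcacc
site 160: gattgatccTAatagtggtgg
site 182: actaagtacAAtgagaagttc
site 221: actgtagacAAaccctccagc
site 222: ctgtagacaAAccctccagca
site 281: tctgcggtcTAttattgtgca
site 292: ttattgtgcAAga

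In FR1 and CDR1, site 38 was the most changed site of Exo1DA/DA mice. It was changed in 0.00541 to 16.6% of clones (median 1.70) in Exo1+/+ mice and in 0 to 22.4% (median 3.04) in Exo1DA/DA mice, while Exo1-/- mice had 0.00669, 0.00846 and 1.19%. The means were 5.26 ± 6.63, 6.69 ± 8.75 and 0.402 ± 0.683% (SD, n = 7, 8 and 3), and the 2 larger groups covered much the same range. The Exo1DA/DA mouse at 0, mouse 303, had 69.1 clones, for which a count of 0 allows a share of up to 4.34%. Its mean was higher in Exo1DA/DA than in Exo1+/+ mice, as at sites 80, 161 and 163, but without mouse 296 the Exo1DA/DA mean was 4.45%, under that of Exo1+/+ mice. In 37.5 of the 167.8 clones of Exo1DA/DA mouse 296 it was changed (22.4%, Wilson 95% interval 16.9 to 29.5%). Such intervals were computed from clone numbers rounded to whole clones and cover counting error alone. Site 80 was changed in 10.1% of the clones of the same mouse (Wilson 95% interval 6.41 to 15.6%) and in 2.10% of those of Exo1+/+ mouse 289, and in less than 0.5 clone of each of the other 16 mice.

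Site 56 was the second most changed site of Exo1+/+ mice. There it was changed in 0.000926 to 29.8% of clones (median 0.837, mean 8.10 ± 13.1, SD, n = 7), with mouse 284 (29.8%) and mouse 287 (24.4%) far above the other 5. Exo1DA/DA mice had 0.00556 to 2.68% (median 0.0185) and the Exo1-/- mice 0.00669, 0.0197 and 1.24%. The difference of means between Exo1DA/DA and Exo1+/+ mice, -7.75 points, was the most negative of all WA sites, with p = 0.0797 (exact permutation test), and was -4.13 without mouse 284.

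In CDR2, the loop that with CDR1 forms much of the contact with antigen, site 160 had the highest mean of the WA sites, which rested on 1 mouse. It was changed in 0.0811 to 44.1% of clones (median 4.23) in Exo1+/+ mice and in 0.000926 to 14.9% (median 0.0981) in Exo1DA/DA mice, with means of 9.36 ± 15.7 and 4.18 ± 5.98% (SD, n = 7 and 8). Without Exo1+/+ mouse 287 the Exo1+/+ mean was 3.58%, under that of Exo1DA/DA mice, and the mean over all mice went from 5.51 to 3.24%, under that of site 38 (5.09% over all 18 mice). The Exo1-/- mice had 0.00551, 0.0874 and 0.115%, so none of them had a mutated clone here in the average iteration. The highest value, in mouse 287, stood for 25.9 of 58.7 clones (Wilson 95% interval 32.2 to 56.7%). The neighbouring site 161 was a site of Exo1-/- mouse 295 alone (3.55%), where the other 17 mice were at or under 0.258%. Site 163 reached 0.5 clone in Exo1+/+ mouse 288 (1.85%) and Exo1DA/DA mouse 302 (3.55%) only. Site 172 was changed in 9.03% of the clones of Exo1+/+ mouse 286, 3.99% of mouse 290, 1.78% of Exo1DA/DA mouse 302 and 2.56% of Exo1-/- mouse 294.

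The 13 FR3 sites averaged 2.91 ± 3.49% in wild type, 0.337 ± 0.552% in Exo1DA/DA and 0.265 ± 0.429% in Exo1-/- mice (SD, n = 7, 8 and 3). The medians were lower, at 0.954, 0.0379 and 0.0217% in the same order, and the highest mice had 8.62, 1.58 and 0.761%. Site 182 was led by Exo1-/- mouse 294, at 7.48% (Wilson 95% interval 4.84 to 11.4%), against at most 1.55% in Exo1+/+ and 1.78% in Exo1DA/DA mice. Counted 1 time for each lineage of related sequences, the 19.0 changed clones of the Exo1-/- mice came to 2.11. Site 200 was changed in 14.2% of the clones of Exo1+/+ mouse 285 and 11.7% of Exo1DA/DA mouse 302, with medians of 0.818 and 0.0119% in the 2 genotypes and at most 0.0117% in Exo1-/- mice. Sites 222 and 281, part of whose changes belong to a set that recurs in several mice and whose source was not tested, were highest in Exo1+/+ mouse 286, at 43.6 and 43.5%, and the means of the Exo1+/+ mice were 7.00 ± 16.2 and 7.61 ± 15.9% (SD, n = 7). In Exo1DA/DA mice site 281 was changed in 4.03% of the clones of mouse 298, with a median over mice of 0.00455%, and in Exo1-/- mice in 0.00351, 0.00423 and 0.396%. At site 281 the difference between Exo1DA/DA and Exo1+/+ mice was -7.10 points (exact permutation test, p = 0.0682), and -1.12 without mouse 286 (p = 0.297, exact permutation test). Without that mouse the Exo1+/+ means at sites 222 and 281 were 0.901 and 1.62%.

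Site 292, the A that opens the last complete codon before the V segment ends in CDR3, was high in Exo1+/+ mice and in 1 Exo1-/- mouse. Whether changes this close to the junction of the V segment are hypermutation was not tested. Without the positions within 10 nt of the ends, the mean over WA sites differed between Exo1DA/DA and Exo1+/+ mice by -2.22 points (exact permutation test, p = 0.0412). Exo1+/+ mice had 0.0331 to 25.3% (median 2.78, mean 7.32 ± 9.26, SD, n = 7) and 6 of the 7 were mutated here. Exo1DA/DA mice had 0.0037 to 2.66% (median 0.0224, mean 0.688 ± 1.07, SD, n = 8) with 3 of 8 mutated, and the Exo1-/- mice 0.00433, 0.00564 and 27.5%, the last in mouse 295 with a Wilson 95% interval of 19.5 to 38.2%. The difference between Exo1DA/DA and Exo1+/+ mice was -6.63 points (exact permutation test, p = 0.00824, adjusted p = 0.338 over 276 positions), and -3.64 without mouse 287 (p = 0.0206, exact permutation test).

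Tested at every position, 5 of the 25 WA sites had an unadjusted p under 0.05 between Exo1DA/DA and Exo1+/+ mice (20% of the sites, beside 22 of 276 positions or 7.97% in all), and all 5 were lower in Exo1DA/DA mice. They were sites 188, 194, 221, 284 and 292, and 0 passed after adjustment over the 276 positions (lowest adjusted p 0.0858, at site 221, exact permutation test). At the FR3 sites among them, the p values depended on values far below 1 clone in most mice. Site 221 was changed in 15.4% of the clones of Exo1+/+ mouse 287 and 5.73% of mouse 285, while the other 5 Exo1+/+ mice had less than 0.5 clone changed and the Exo1DA/DA mice 0.00355 to 0.018%. Its p was 0.000311 (exact permutation test). Sites 188, 194 and 284 were led by the same mouse 287, at 18.4, 20.2 and 8.17%, against at most 0.0143, 0.026 and 0.0966% in Exo1DA/DA mice. Without mouse 287 the differences at 188, 194, 221 and 284 shrank to -0.183, -0.0658, -0.968 and -0.342 points. At 188 and 284 the p also rose above 0.05 when most single Exo1DA/DA mice were left out, reaching 0.115 and 0.106 (exact permutation tests) with the difference hardly moved. When a site changed in less than 0.5 clone of a mouse was set to 0 there, 1 of the 25 sites kept a p under 0.05 (3 of 276 positions, 1.09%), namely site 292 with p = 0.00917 (exact permutation test). With each lineage of related sequences counted 1 time, 3 of the 25 sites had such a p (16 of 276 positions, 5.8%), without sequences shared between mice 7 (48 positions, 17.4%), and without clones of recurring sets of changes, described below, 6 (20 positions, 7.25%). Between the mutants these counts were 0 (0.362% of positions), 1 (1.45%) and 1 (2.54%) in the same order.

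The direction was shared more widely than the tests. The mean was lower in Exo1DA/DA than in Exo1+/+ mice at 21 of the 25 sites (84%), beside 149 of all 276 positions (54.0%), and the median difference over the sites was -1.63 points, beside -0.00298 over all positions. The 21 include sites 95, 148 and 239, and among sites mutated in any mouse it was lower at 18 of 22 (81.8%), beside 113 of 203 positions mutated by the same count (55.7%). For Exo1-/- mice it was likewise lower at 21 of 25 sites, beside 178 of 276 positions (64.5%), with a median difference of -2.28 points, and 0 sites had a p under 0.05 (0.362% of all positions). The 2 comparisons share the Exo1+/+ mice. Without the Exo1+/+ mouse that was highest at a site, the Exo1DA/DA minus Exo1+/+ difference turned positive at sites 160, 179, 182, 200 and 222, at 0.0619 to 0.603 points. Nor are the sites independent, as A160G, A175G, A188G and A194G stood together in 6.87 clones of mouse 287. Of the sites, 38, 80 and 163 had the most positive differences of the mean in Exo1DA/DA mice and 161, 182 and 292 in Exo1-/- mice. Between the mutants 1 site, 221, had a p under 0.05 (2.54% of all positions), with every mouse under 0.5 clone.

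The base before the A was compared within mice and between genotypes. AA sites were changed in 3.45 ± 3.05% of clones in wild type, 0.833 ± 0.776% in Exo1DA/DA and 1.04 ± 1.21% in the Exo1-/- mice, and TA sites in 2.76 ± 3.32, 0.709 ± 0.833 and 0.142 ± 0.206% (SD, n = 7, 8 and 3). TA sites were the higher in 2 of 7 wild type, 2 of 8 Exo1DA/DA and 0 of 3 Exo1-/- mice, with mean differences of -0.697, -0.124 and -0.899 points (exact sign-flip permutation tests, p = 0.172, 0.430 and 0.25, the last the smallest that 3 mice allow). The difference within Exo1DA/DA mice was -0.472 without site 160 (exact sign-flip permutation test, p = 0.00781, the smallest that 8 mice allow). Site 160, a TA site, was left out as the most changed over all mice. Site 38, an AA site with a higher Exo1DA/DA mean (6.69 against 4.18%), stayed in, and the difference without it was not computed. Within Exo1+/+ mice the difference was -0.616 with each lineage, a group of related sequences defined below, counted 1 time (p = 0.0469, exact sign-flip). At AA sites Exo1DA/DA and Exo1+/+ mice differed by -2.62 points (exact permutation test, p = 0.0101, adjusted p = 0.0875, lower in 48 of 56 pairs), and by -1.59 without mouse 287 (p = 0.024, exact permutation test). At TA sites the difference was -2.05 (exact permutation test, p = 0.103) and came to -1.74 with p = 0.0272 (exact permutation test) without site 160, and without mouse 284, 289 or 302 the p was 0.0423 to 0.0486 (exact permutation tests), while without mouse 287 the difference was -1.01 (p = 0.240, exact permutation test). For Exo1-/- mice the differences were -2.41 at AA sites (p = 0.25, exact permutation test) and -2.62 at TA sites (p = 0.10, exact permutation test), the latter lower in 20 of 21 pairs, and without mouse 287 they were -1.38 and -1.58. The AA mean of the Exo1-/- mice was mostly site 292 of mouse 295.

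Distance to the nearest WGCW position was compared in the same way. Near sites were changed in 4.06 ± 3.62% of clones in wild type, 0.851 ± 0.735% in Exo1DA/DA and 0.777 ± 1.19% in the Exo1-/- mice, and far sites in 1.98 ± 2.79, 0.686 ± 0.909 and 0.477 ± 0.530% (SD, n = 7, 8 and 3). Within Exo1+/+ mice near sites were the higher in 6 of 7 mice, by 2.08 points (exact sign-flip permutation test, p = 0.0469, adjusted p = 0.25). Leaving out any of mice 284 to 289 took the p to 0.0625 or 0.0938 (exact, 1.42 to 2.42 points). It was under 0.05 with 1 boundary alone, since near as within 5 nt gave 0.495 points (p = 0.781, exact) and within 20 nt 1.31 (p = 0.125, exact). In Exo1DA/DA mice near sites were the higher in 6 of 8, by 0.164 points (exact sign-flip permutation test, p = 0.391). Without site 160, a far site, this was 0.514 (p = 0.00781, exact, the smallest that 8 mice allow), with site 38, the most changed near site of these mice, kept in. With near as within 5 nt, which makes site 38 (7 nt) a far site, it was -0.580 (p = 0.109, exact). In Exo1-/- mice near sites were the higher in 2 of 3, by 0.300 (p = 0.75, exact), which turned to -0.451 without mouse 295 and to -0.335 without the positions within 10 nt of the ends. Between the genotypes the near sites were -3.21 points apart, with the Exo1DA/DA mouse lower in 48 of 56 pairs (exact permutation test, p = 0.00699, adjusted p = 0.0875), and the far sites differed by -1.30 (p = 0.235, exact permutation test), or by -0.280 without mouse 287 (p = 0.571, exact permutation test). Whether the difference is unlike at near and far sites was not tested. By finer steps, the 7 sites at 1 to 3 nt averaged 4.24% in Exo1+/+ mice, the 7 at 4 to 10 nt 3.88%, the 4 at 11 to 20 nt 1.59% and the 7 beyond 20 nt 2.21%, the last holding site 160. In Exo1DA/DA mice the same steps gave 0.520, 1.18, 0.536 and 0.773%. Each step was led by 1 mouse, without which the means were 2.63, 2.03, 0.912 and 0.998% in Exo1+/+ and 0.0996, 0.892, 0.2497 and 0.397% in Exo1DA/DA mice.

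**Figure D3:**
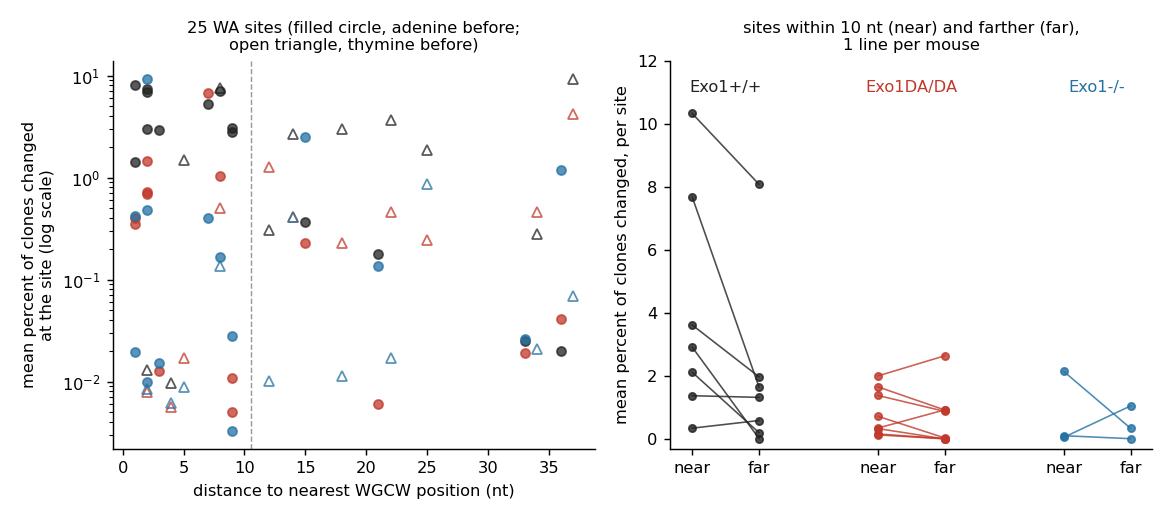
Left, mean percent of clones changed (log y axis) at each of the 25 WA sites against the distance to its nearest WGCW position in nt, black for Exo1+/+, red for Exo1DA/DA and blue for Exo1-/- mice, with a dashed line at the boundary of 10 nt. Right, the mean over near and far sites with a line for each mouse, which falls from near to far in 6 of 7 wild type, 6 of 8 Exo1DA/DA and 2 of 3 Exo1-/- mice.

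The new base was G in most mice, the change for which Polη is known. At 16 of the 22 mutated sites the most frequent change was to G, at 5 to T (80, 160, 172, 179 and 284, all of them TA sites) and at 1, site 216, to C. The share of WA mutations to G was 56.6 ± 28.1% in the 7 Exo1+/+ mice and 62.8 ± 33.4% in the 6 Exo1DA/DA mice with at least 3 WA mutations per iteration (SD), and 69.7 and 88.9% in the 2 Exo1-/- mice that had as many. The Exo1DA/DA share differed from that of Exo1+/+ mice by 6.17 points (exact permutation test, p = 0.723), the share to C by -7.14 (p = 0.434, exact) and the share to T by 0.966 (p = 0.943, exact). None of these directions held in every alternative, as the share to G differed by -0.904 without mouse 284, that to C by 1.49 without the positions at the ends, and that to T by -12.8 to 10.7 when mice were left out in turn. Mice of 1 genotype differed more than genotypes did. The share to G ran from 14.2 to 96.5% in Exo1+/+ mice, with 85.6% to T in mouse 284, and in Exo1DA/DA mouse 301 97.1% of 5.29 WA mutations were to T, nearly all of them A38T.

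**Figure D4:**
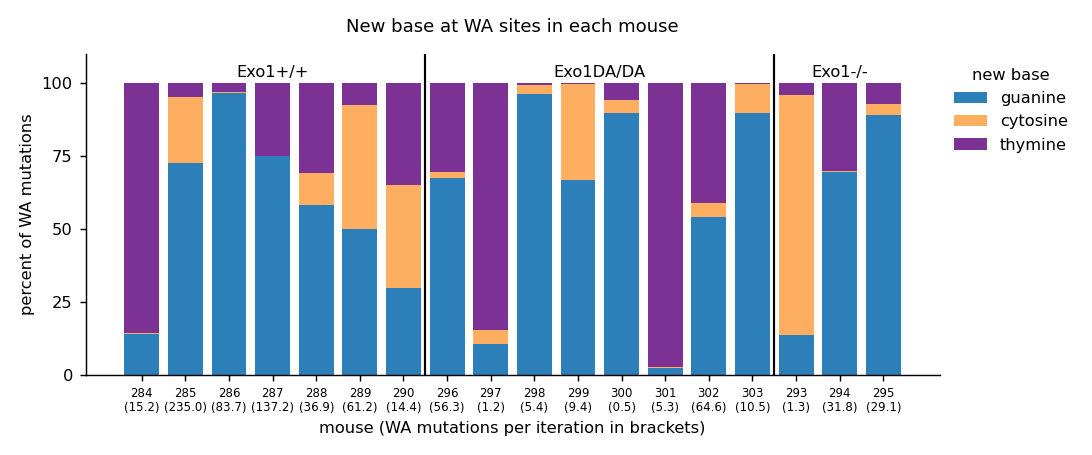
Share of WA mutations to guanine, cytosine and thymine (stacked bars, percent of WA mutations) in each mouse, with the number of WA mutations per iteration under its number. The guanine share spans 14.2 to 96.5% among Exo1+/+ mice, and bars over 1.2, 0.5 or 1.3 mutations stand for about 1 clone or less.

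New bases were also summed over mice for AA and TA sites, and some of these sums rested on single mice. In Exo1+/+ mice 86.6% of 383.7 mutations at AA sites were to G, and 40.3% of 200.1 at TA sites, where 32.7% were to T and 26.9% to C. Most of the latter were A216C in mouse 285 (49.6 clones), without which mouse 2.45% were to C and 56.6% to G, while without mouse 286 (A281G, 28.8 clones) 25.2% were to G. Exo1DA/DA mice had 80.0% to G at AA sites, and 34.0% to G and 59.2% to T at TA sites, where A80T in mouse 296 (17.006 clones) and A160T in mouse 302 (16.8 clones) made up most of the changes to T. Without mouse 296 the share to T was 43.5%, and without mouse 302 it was 57.3%. In Exo1-/- mice 86.8% of the few mutations at TA sites were to T, nearly all of them in mouse 294, and the AA sites 91.5% to G. Of the Exo1+/+ sums, 82.3 clones were A68G, 50.6 A216C, 35.9 A222G and 34.8 A281G. Over all mice, most clones with these changes carried the recurring sets described below, whose source was not tested. The sums were not made without those sets. All are sums in which mice with many clones weigh most, and no test was made of them. At the level of the protein, 78.8% of the WA mutations of Exo1+/+ mice replaced the amino acid, 20.6% were synonymous and 0.544% made a stop codon, beside 92.4, 5.68 and 1.97% in Exo1DA/DA and 90.2, 8.23 and 1.62% in Exo1-/- mice. The synonymous share of Exo1+/+ mice came mainly from sites 216 and 222 and from A292C. Over all mice, 46.4 clones with A216C and 28.5 with A222G belonged to the recurring sets, and A292C lies at the end of the segment. Whether these changes are mutations was not tested.

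Mutations at other positions in clones with and without a WA mutation were described without a test. In Exo1+/+ mice clones with a WA mutation had 6.15 ± 1.86 mutations outside WA sites, beside 3.60 ± 0.773 in clones without one (SD, n = 7), and the former was the higher in 6 of 7 mice. In Exo1DA/DA mice the values were 7.00 ± 3.95 and 5.87 ± 1.70 (SD, n = 8), with the former higher in 4 of 8 mice. This order rested on mouse 303 (15.6 and 4.93), without which the means were 5.77 and 6.01. In Exo1-/- mice they were 10.9 ± 9.31 and 5.06 ± 3.01 (SD, n = 3), led by mouse 293 (21.0 and 4.78), which had 1.30 clones with a WA mutation, and 5.84 and 5.19 without it. A WGCW position was mutated in 71.8 ± 17.6% of the clones with a WA mutation in Exo1+/+ mice and in 47.7 ± 20.2% of the others (higher in 5 of 7 mice), or in 67.4 and 52.9% without mouse 284. In Exo1DA/DA mice the values were 79.2 ± 29.6 and 75.6 ± 21.4% (higher in 6 of 8), or 78.9 and 79.4% without mouse 297. In Exo1-/- mice clones with a WA mutation had 76.9, 93.5 and 25.2%, beside 53.4, 98.2 and 39.6% in the others (higher in 1 of 3). Per clone that had any, Exo1+/+ mice had 1.09 to 3.35 WA mutations (median 1.38), while 5 of 8 Exo1DA/DA mice and all 3 Exo1-/- mice had at most 1.04. The highest Exo1DA/DA value, 1.998, was that of mouse 302.

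Many WA mutations occurred in combinations and in related sequences. In all, 69 combinations of WA changes were carried by at least 0.5 clone of a mouse, 28 of them single changes, and the longest, in Exo1+/+ mouse 287, joined 7. The largest group of related sequences of a mouse (at least 4 mutations each and a Jaccard index, the shared part of their joint mutations, of at least 0.7) held 8.81 to 80.1% of the WA clones of Exo1+/+ mice (median 42.4) and 27.5 to 100% in Exo1DA/DA mice (median 68.7). In 2 of the latter, with 0.548 and 1.23 WA clones, a single sequence set the value, and over the 6 mice with at least 3 WA clones the median was 50.7. Counted 1 time for each such lineage, site 56 went from 27.6 to 6.55 clones and site 68 from 85.2 to 11.7 in Exo1+/+ mice, and site 80 from 17.1 to 0.735 in Exo1DA/DA mice. Site 38 went from 45.9 to 22.6 clones in Exo1+/+ and from 54.3 to 11.3 in Exo1DA/DA mice, so the order of these sums turned. The difference between Exo1DA/DA and Exo1+/+ mice in the mean over WA sites was then -1.11 points (exact permutation test, p = 0.0454).

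Similar sequences were also found in different mice. At 6 or more mutations and the same index, sequences of Exo1DA/DA mouse 302 matched some of Exo1+/+ mouse 288, and these held 65.4 and 48.5% of the WA clones of the 2 mice. Sequences common to Exo1DA/DA mouse 296 and Exo1+/+ mouse 289 held 72.4 and 37.9%. The combination A160T with A200G, the pair A68T with A160T and the combination of A38C, A163G and A175G, with or without A292T, reached 0.5 clone in mice 288 and 302 and in no other, and A80T in mice 289 and 296. In all, 79.5% of the WA clones of mouse 296 had a match in another mouse. The origin of the matches was not tested. Without all shared sequences the difference between Exo1DA/DA and Exo1+/+ mice was -2.30 points (exact permutation test, p = 0.0165).

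A further group of clones repeated the same set of changes in several mice. A WA change was searched for other changes that stood in at least 70% of its clones and in at least 3 mice, and 4 WA changes had 3 or more such companions. A222G and A281G occurred together with A241T and A294G in 7 mice of all 3 genotypes (285, 286, 287, 288, 289, 294 and 298), where 84.3% of the A222G clones had A241T and 93.4% of the A281G clones had A294G. In the 17 sequences of this set that were drawn in every iteration the number of changes was 4 to 11 (median 5), so that most held little beyond it. A68G had 8 companions, G57C, C66T, T85A, C87T, A88G, C89G and C115G in mice 285, 288 and 303 and G114A in these and mouse 287, each in 75.6 to 82.8% of its 83.4 clones, and A216C with G138A, G154A, C173T, G177A, G197A and C252T in the same mice. Together these sets held 111.2 clones, 20.1% of all WA clones, among them 44.6% of those of Exo1+/+ mouse 285 and 39.5% of those of mouse 286, and 2 of the 3.36 WA clones of Exo1DA/DA mouse 298 (59.6%), the highest share. Whether these clones come from VH186.2 or from a related V gene or allele was not tested, and in the latter case their values at sites 68, 216, 222 and 281 would be germline differences and not mutations. Without them the Exo1+/+ means went from 7.00 to 3.05% at site 222, from 7.61 to 3.65% at site 281, from 6.93 to 4.15% at site 68 and from 2.69 to 0.686% at site 216. At site 281 the Exo1DA/DA mean went from 0.509 to 0.00917% and the Exo1-/- mean from 0.135 to 0.00363%, and at site 222 the Exo1DA/DA mean went from 1.03 to 0.536%. The difference between Exo1DA/DA and Exo1+/+ mice in the mean over WA sites was -2.03 points (exact permutation test, p = 0.0292), and the excess of near over far sites within Exo1+/+ mice 1.49 points (exact sign-flip permutation test, p = 0.0625).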

How the data were processed

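VH186.2 (gene symbol Ighv1-72 in the RefSeq gene table of GRCm38.p6) was amplified from spleen cDNA of 18 mice and sequenced on a MiSeq. The authors assembled the read pairs, merged reads that shared a molecular identifier, defined CDR3 clones from IMGT/HighV-QUEST output and resampled them 1000 times. The deposited lists hold a row per mutation (position, germline base, new base, motif, iteration and dataset number) and are neither read counts nor normalized values. Program versions and the genome build were not given in the sources used here, so no genome coordinates are printed, and read depth is not part of the lists. The sample labels give the antigen dose in different units, and it is not printed. Positions count from the start of the V segment, and region borders and codons follow IMGT numbering of its codons.

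A sequence was weighted by the number of iterations that drew it, divided by 1000. Sequences drawn in every iteration held 80.4% of the 554.4 WA clones, so the iterations are not replicates. The germline base before each A was read from the neighbouring position of the lists. Per mouse, the percent of clones changed was averaged over a group of sites. The mouse was the unit of replication, taken as 1 dataset number, and the labels name no batch for these numbers. For genotypes, the difference of means was tested against all 6435, 120 or 165 divisions of the mice (exact permutation, 2-sided) and adjusted by Benjamini-Hochberg over 26 comparisons, and kinds of site within a genotype by exact sign-flip permutation tests, adjusted over 12. Single sites were tested at all 276 positions and adjusted over these. Results were read against an unadjusted p of 0.05, since 0 passed after adjustment. New base shares needed at least 3 WA mutations per iteration in a mouse.

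Sites given with full values were the 4 with the highest mean in each genotype, the 3 most positive and 3 most negative differences of each mutant from wild type, and those with an unadjusted p under 0.05. Sites 68, 95, 148, 175, 176, 179, 216, 222 and 239 are outside this rule and, where named, were chosen after their values were seen. The sites and tests were chosen with earlier results of these data known, among them a lower frequency at Polη hotspots in the mutants. Leaving out each mouse at single sites, setting less than 0.5 clone to 0, leaving out recurring sets of changes, and giving descriptions without the mouse that leads them or over mutated sites alone were added after seeing the data. The calculations were tested on simulated data, where 864 of 864 values were recovered and all 8 planted lineages and shared sequences were found. Python 3.11.15, NumPy 2.4.6, SciPy 1.17.1, pandas 2.3.3 and matplotlib 3.10.9 were used.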

Additional observations from a re-analysis of the deposited data

Results flagged for a closer look

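Among 48 groups of 7 or 8 mice examined, 21 held a mouse whose distance from its neighbour passed the 95% limit of Dixon's test, where chance gives about 1 in 20 groups, or 2.4. Values that are near 0 in most mice meet this limit easily.

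Of the 11 cases in Exo1+/+ mice, 6 belong to mouse 287, in which 44.1% (site 160), 18.4% (188), 20.2% (194), 15.4% (221) and 8.17% (284) of clones were changed, with a mean over far sites of 8.09%. In the others, mouse 285 had 14.2% at site 200, mouse 286 43.5% at site 281, mouse 288 1.85% at site 163, mouse 289 2.10% at site 80, and mouse 284 85.6% of its WA mutations to T.

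Among Exo1DA/DA mice, mouse 302 stood apart at site 56 (2.68%), 163 (3.55%), 172 (1.78%), 182 (1.78%) and 200 (11.7%), in its mean over TA sites (2.49%) and in its mean over far sites (2.65%). Sequences similar to those of Exo1+/+ mouse 288 held 65.4% of its WA clones. Mouse 296 stood apart at site 80 (10.1%), mouse 298 at site 281 (4.03%), and mouse 299 in the share of WA mutations to C (33.0%).

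The excess of WA over other A sites differed between Exo1DA/DA and Exo1+/+ mice by -2.02 points by a test of the difference itself (exact permutation test, p = 0.026, adjusted p = 0.112). Without the positions within 10 nt of the ends it was -1.52 (p = 0.144, exact permutation test), and without mouse 287, 298, 299 or 300 the p was 0.0583 to 0.0689 (exact permutation tests).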

How the results depend on the processing

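Of 237 values recomputed under another choice, 202 kept their direction and their side of an unadjusted p of 0.05 (exact permutation tests throughout), and 28 of the 43 results tried without each mouse did so. Neither the earlier nor the later iterations alone, nor distinct mutations, changed a direction or a side. Distinct mutations took the Exo1DA/DA minus Exo1+/+ difference in WA share from -9.99 to -5.52. In WA frequency the difference was then -0.279, on another scale than -2.37, since the clones divided by were not reduced. The cause of the other changes was not tested. In 3 mice (293, 297 and 300) there were 0.548 to 1.30 WA mutations per iteration, which limits their values at single sites and of new bases.

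Without the 22 positions near the ends, the Exo1DA/DA minus Exo1-/- difference in WA share was 1.41, the Exo1DA/DA minus Exo1+/+ differences to C and T were 1.49 and -3.15, and that of WA minus other A sites -1.52. Near minus far in Exo1-/- mice was then -0.335, and WA minus other A 2.16 for wild type, 0.648 for Exo1DA/DA and 0.00685 for Exo1-/- mice. Without shared sequences, the mutants differed by -0.102 in WA frequency, and Exo1DA/DA from Exo1+/+ mice by -12.1 to T. WA minus TW then differed by -1.99 between these (exact permutation test, p = 0.0424, beside -2.19 and p = 0.0606 with all sequences). Within Exo1DA/DA mice it was 0.529 (exact sign-flip permutation test, p = 0.0156, beside 0.482 and p = 0.234). With a lineage counted 1 time, the mutants differed by -0.106 in WA frequency. The share to T differed from Exo1+/+ mice by -5.75 in Exo1DA/DA and by 1.03 in Exo1-/- mice, and TA minus AA in Exo1+/+ mice was -0.616 (p = 0.0469, exact). In the site tests 3 and 0 WA sites had p under 0.05 (Exo1DA/DA against Exo1+/+ and against Exo1-/-), beside 5.8 and 0.362% of all positions. Without site 160, the mutants differed by -0.0325, TA sites by -1.74 and WA minus TW by -2.07 (Exo1DA/DA minus Exo1+/+, the last with p = 0.0331, exact permutation test). In Exo1DA/DA mice TA minus AA was then -0.472 and near minus far 0.514 (p = 0.00781 for both, exact). Site 38, an AA and near site that was higher than site 160 in these mice, was kept in. Near as within 5 nt gave 0.495 for wild type and -0.580 for Exo1DA/DA mice, and within 20 nt 1.31 in Exo1+/+ mice. A minimum of 1 WA mutation gave -1.28 to G (Exo1DA/DA) and 12.8 to C (Exo1-/-), and a minimum of 10 gave -3.41 to T (Exo1DA/DA). Medians gave -1.13 in WA frequency. After adjustment over all positions 0 sites passed in either comparison of Exo1DA/DA mice. Without recurring sets near minus far was 1.49 in Exo1+/+ mice and 6 sites had p under 0.05 (7.25% of all positions), and with less than 0.5 clone set to 0 this was 1 site against Exo1+/+ (1.09%) and 0 between the mutants (0 of 276 positions).

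Leaving out each mouse gave these ranges for Exo1DA/DA minus Exo1+/+: WA minus TW -2.57 to -1.15, WA minus other A -2.33 to -1.23, AA sites -3.14 to -1.59, TA sites -2.46 to -1.01, far sites -1.62 to -0.280, to G -0.904 to 18.2, to T -12.8 to 10.7, clones with a WA mutation -31.8 to -20.8, site 188 -3.25 to -0.183 and site 284 -1.70 to -0.342. Between the mutants WA frequency ran from -0.153 to 0.492 and WA share from -4.21 to 1.94, and to T for Exo1-/- against Exo1+/+ mice from -20.3 to 2.69. Within genotypes, WA minus TW in Exo1DA/DA mice ran from 0.244 to 0.761, WA minus other A in Exo1-/- mice from -0.772 to 0.412, and near minus far from 1.42 to 2.47 in Exo1+/+ and from -0.451 to 0.949 in Exo1-/- mice.

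No paired analysis was possible because the dataset numbers of the lists carry no replicate number of the labels.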
